A study of Mus musculus with 2 samples.

Results

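The clustered histone genes are the rows of the deposited table whose gene symbol opens with Hist1h, Hist2h, Hist3h or Hist4h. There are 70 of them among 48550 rows: by symbol, 6 are of the linker histone H1, 20 of H2A, 19 of H2B, 12 of H3 and 13 of H4. By annotation 67 are coding and 3 are pseudogenes (Hist1h2aj, Hist1h2al and Hist3h2bb-ps). Of the 70, 56 carry a Hist1 symbol and lie on chromosome 13, 10 belong to Hist2 on chromosome 3, 3 to Hist3 on chromosome 11, and 1, Hist4h4, lies on chromosome 6. The data are total nuclear RNA-seq of F121-6, a female embryonic stem (ES) cell line from a cross of the mouse strains labelled 129 and cas. The cells were grown with LIF and serum on mouse embryonic fibroblasts stopped with mitomycin C, and the series holds 2 libraries of this 1 line under this 1 condition. Each library has a 129 column and a cas column, so that the comparison is between the alleles of each gene within the same RNA.

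DNA is wound around octamers of H2A, H2B, H3 and H4, and H1 binds the DNA that enters and leaves each octamer. Most of the clustered genes are expressed in S phase to supply histones for new chromatin. Their messages have no introns and no poly(A) tail, and end in a stem-loop that the stem-loop binding protein SLBP recognises. Each of H2A, H2B, H3 and H4 is encoded by many gene copies with almost the same protein, so that reads of 1 copy can be hard to tell from those of another.

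The deposited values are RPKM, from which whole allele-assigned reads were recovered: 15300476 from 129 and 13223268 from cas in library 1, and 17006241 and 14396524 in library 2. With TMM (trimmed mean of M values) scaling of the columns, a gene with equal alleles had a 129 share of 55.3% in library 1 and 56.0% in library 2. A read is assigned only where it covers a base that differs between the strains, so that 0 reads need not mean that a gene was silent. In bulk RNA, fewer cells that use an allele and less RNA per cell cannot be told apart. The labels do not name separate cultures for the libraries, so that no p-value covers the spread between cultures. Limma p-values rest mostly on a spread shared by genes of similar level (88.7 prior degrees of freedom), and little on each gene's own 2 libraries. Exact binomial p-values, within 1 library, cover counting error only. Of 12 ES cell markers, 11 had enough reads to be tested; 1 was higher from 129 and 6 from cas, and their summed reads had a 129 share of 53.6% ± 0.33 (SD, n = 2). Of 20 fibroblast markers, 17 were tested and 2 had no read; 13 were higher from 129 and 0 from cas (21.8% each way among all genes tested), with a median log2(129/cas) of 3.78 and a 129 share of summed reads of 65.5% and 69.3%. The part of feeder RNA in the histone values was not tested.

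The sequences below are those of 3 members with one-sided reads (Hist1h1d, Hist1h2bh and Hist1h3f) and of the near-identical copies Hist1h4m and Hist1h4n, and show the features by which a histone message is known. The first is the stem-loop. Hairpins with a 6-base stem (at most 1 mismatch, opening with GG) around a 4-base loop were searched in the first 200 bases after the stop codon of GENCODE M21 transcripts, on the gene's strand, and the 45 found gave the consensus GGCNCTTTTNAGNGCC, with N where no base reached 90%. Since the consensus was made from these genes, its count among them is a description: it was found in 41 of 67 coding members (61.2%), against 2 of 21738 other coding genes (0.00920%), the histone genes H2afx and H2bfm. For many members the annotated transcript ends at the stop codon, and no match there says only that these letters are not in the annotated window. In the lines that follow, capitals mark the motif, 5′ to 3′, as DNA, on GRCm38.
Hist1h1d, chr13:23555783-23555807, plus strand: aaacGGCTCTTTTCAGAGCCaccca
Hist1h2bh, chr13:23542923-23542947, minus strand: caaaGGCTCTTTTCAGAGCCactca
Hist1h3f, chr13:23544928-23544952, plus strand: aaacGGCTCTTTTAAGAGCCacctc
Hist1h4m, chr13:21812125-21812147, plus strand: taaaGGCCCTTTTCAGGGCCatc
Hist1h4n, chr13:21831793-21831817, minus strand: taaaGGCCCTTTTCAGGGCCatcca

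The second feature is the promoter. RefSeq promoters, of 250 bases before to 50 after the start on GRCm38.p6, were matched for 62 of the 70 genes; Hist1h3f, Hist1h3a, Hist1h2bc, Hist1h2aj, Hist1h2al, Hist2h2be, Hist2h4 and Hist3h2bb-ps had none in the table. On either strand, the TATA box TATAAA occurred in 35 of 62 (56.5%), against 13.5% of 32788 other promoters. The CCAAT box, searched as CCAAT, occurred in 53 of 62 (85.5%), against 37.3% of the others: it was in each of the 6 H1, 18 H2A, 16 H2B and 10 H3 promoters searched, and in 3 of 12 H4 promoters. The octamer ATTTGCAT occurred in 13 of 62, against 1.70% of the others, in 7 of 18 H2A and 6 of 16 H2B promoters and in none of the H1, H3 and H4 promoters searched. None of these 3 motifs contains another, and a match is a description and not a site. Windows of head-to-head genes overlap and both strands were searched, so that the same letters can count for both genes. The only TATA match of Hist1h2bf, Hist1h2bk, Hist1h2bn and Hist1h2bp is on the strand of the H2A partner, and that of Hist1h2ae on the strand of Hist1h2bg. The octamers of Hist1h2aa and Hist1h2ba, of Hist1h2ae and Hist1h2bg, and of Hist1h2ah and Hist1h2bk are shared in this way. The lines that follow give the promoters of a pair with opposite one-sided reads (Hist1h1d and Hist1h2bh) and of a pair of near-identical copies (Hist1h4m and Hist1h4n), with TATA and CCAAT boxes of either strand in capitals.
Hist1h1d, chr13:23554782-23555081, plus strand: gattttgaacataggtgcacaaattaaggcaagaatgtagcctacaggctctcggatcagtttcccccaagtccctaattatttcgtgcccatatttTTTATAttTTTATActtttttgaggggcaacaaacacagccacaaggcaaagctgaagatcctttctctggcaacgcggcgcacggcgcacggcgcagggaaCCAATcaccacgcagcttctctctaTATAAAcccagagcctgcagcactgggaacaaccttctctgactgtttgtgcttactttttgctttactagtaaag
Hist1h2bh, chr13:23543395-23543694, minus strand: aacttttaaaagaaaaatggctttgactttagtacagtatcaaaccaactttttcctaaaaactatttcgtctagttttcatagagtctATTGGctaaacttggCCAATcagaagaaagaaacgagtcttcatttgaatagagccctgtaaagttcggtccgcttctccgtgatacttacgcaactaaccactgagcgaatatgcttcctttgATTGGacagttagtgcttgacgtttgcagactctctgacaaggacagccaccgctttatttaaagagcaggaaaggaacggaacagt
Hist1h4m, chr13:21811496-21811795, plus strand: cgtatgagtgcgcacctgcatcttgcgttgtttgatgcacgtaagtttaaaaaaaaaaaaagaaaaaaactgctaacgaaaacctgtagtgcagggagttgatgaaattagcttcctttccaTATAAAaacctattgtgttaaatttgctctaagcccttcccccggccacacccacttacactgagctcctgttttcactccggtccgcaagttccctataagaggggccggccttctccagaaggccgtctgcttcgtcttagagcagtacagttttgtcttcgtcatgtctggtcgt
Hist1h4n, chr13:21832148-21832447, minus strand: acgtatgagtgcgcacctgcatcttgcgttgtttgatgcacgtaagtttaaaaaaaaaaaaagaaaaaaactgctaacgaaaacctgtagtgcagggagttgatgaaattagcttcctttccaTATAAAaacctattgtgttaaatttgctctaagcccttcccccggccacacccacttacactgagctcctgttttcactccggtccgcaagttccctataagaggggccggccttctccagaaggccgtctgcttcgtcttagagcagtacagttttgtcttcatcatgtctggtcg

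In these letters, Hist1h1d has matches of both kinds, Hist1h2bh has CCAAT and no TATA matches, and both H4 copies have a TATA and no CCAAT match. The TATA match of the H4 copies lies far before the start. The promoters of Hist1h4m and Hist1h4n were identical at 298 of 299 aligned bases.

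Reads came from 60 of the 70 genes, and 10 had none: Hist3h2a, Hist1h2af, Hist1h4b, Hist2h2ab, Hist2h2be, Hist2h2aa2, Hist2h2aa1, Hist2h3c1, Hist2h3b and Hist2h2bb. Among these 10 the median share of 100-base stretches of the transcript that also occur in another gene's transcript was 89.7%, and 5 were shared in full, whereas Hist2h2be had no shared stretch. Both strands were searched, and a gene annotated over the same place counts as another gene. Hist3h2a, Hist2h2ab and the 5 shared in full shared most stretches with such an overlapping gene. These shares are thus not a measure of copies elsewhere alone. A further 14 genes had 1 to 31 reads over both libraries, with a median of 5.5, and missed the minimum of 20 reads in each library. Among them were Hist1h1t, which encodes the testis-specific H1 and had 8 and 12 reads from 129 in libraries 1 and 2 and 8 and 1 from cas, and the H2B gene Hist1h2bf, with 14 and 5 reads from 129 and 2 and 10 from cas. Both genes had counts that overlapped between the alleles. The others with so few reads were Hist3h2ba, Hist1h2aj, Hist1h4k, Hist1h2bq, Hist1h2br, Hist1h4h, Hist1h3g, Hist1h4f, Hist1h2ad, Hist1h3d, Hist1h4d and Hist2h4. The 46 tested genes had 54 to 4731 reads, with a median of 623.5.

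Differences between the alleles were frequent among the tested histone genes and went both ways. By limma with Benjamini-Hochberg adjustment over 15509 genes, 24 of 46 passed an adjusted p of 0.05 (52.2%, against 43.7% of all genes tested): 9 were higher from 129 (19.6%, against 21.8%) and 15 higher from cas (32.6%, against 21.8%). The share past the threshold is near that of all genes. The split depends on the settings: 11 were higher from 129 and 9 from cas with 1 shared library size, 8 and 9 with no library block, and 5 and 3 with no variance trend, where all genes share 1 prior spread. Of the calls over all genes, 81.3%, 54.7% and 63.6% were toward 129 in these settings, in the same order. The median log2(129/cas), on the scale of log2(CPM + 0.1), was -0.21 over the 46 genes and -0.00 over all genes, and the median size of the log2 ratio was 0.60 against 0.40. With 1 library size for both alleles of a library, the median of all genes was 0.32 and that of the histone genes 0.10, so that both directions are relative to the typical gene. All 24 genes that passed kept their sign in both libraries. An exact binomial test, two-sided and adjusted over all genes, found a difference for 31 of the 46 in library 1 (67.4%, against 58.4% of all genes), for 29 in library 2 (63.0%, against 66.0%), and for 24 with the same direction in both (52.2%, against 45.3%), which include 22 of the 24 limma calls.

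The histone genes also held large differences. At least 8-fold differences among called genes were found for 8 of 46 (17.4%, against 3.46% of all genes tested), 5 toward 129 and 3 toward cas. For 5 of the 46 no read at all came from 1 of the alleles in either library (10.9%, against 0.503%). These genes had few reads in comparison with the best covered members, as the counts given below show. The other 16 called genes differed by less than 8-fold, 4 toward 129 and 12 toward cas. With no variance trend the calls of all 16 were lost (limma adjusted p = 0.053 to 0.24). Among the 8, Hist1h2ao, Hist1h2ap and Hist1h4m have a near-identical copy, whose reads may not be told apart from theirs. Hist1h2ao and Hist1h2ap are also among the 5.

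**Figure D1:**
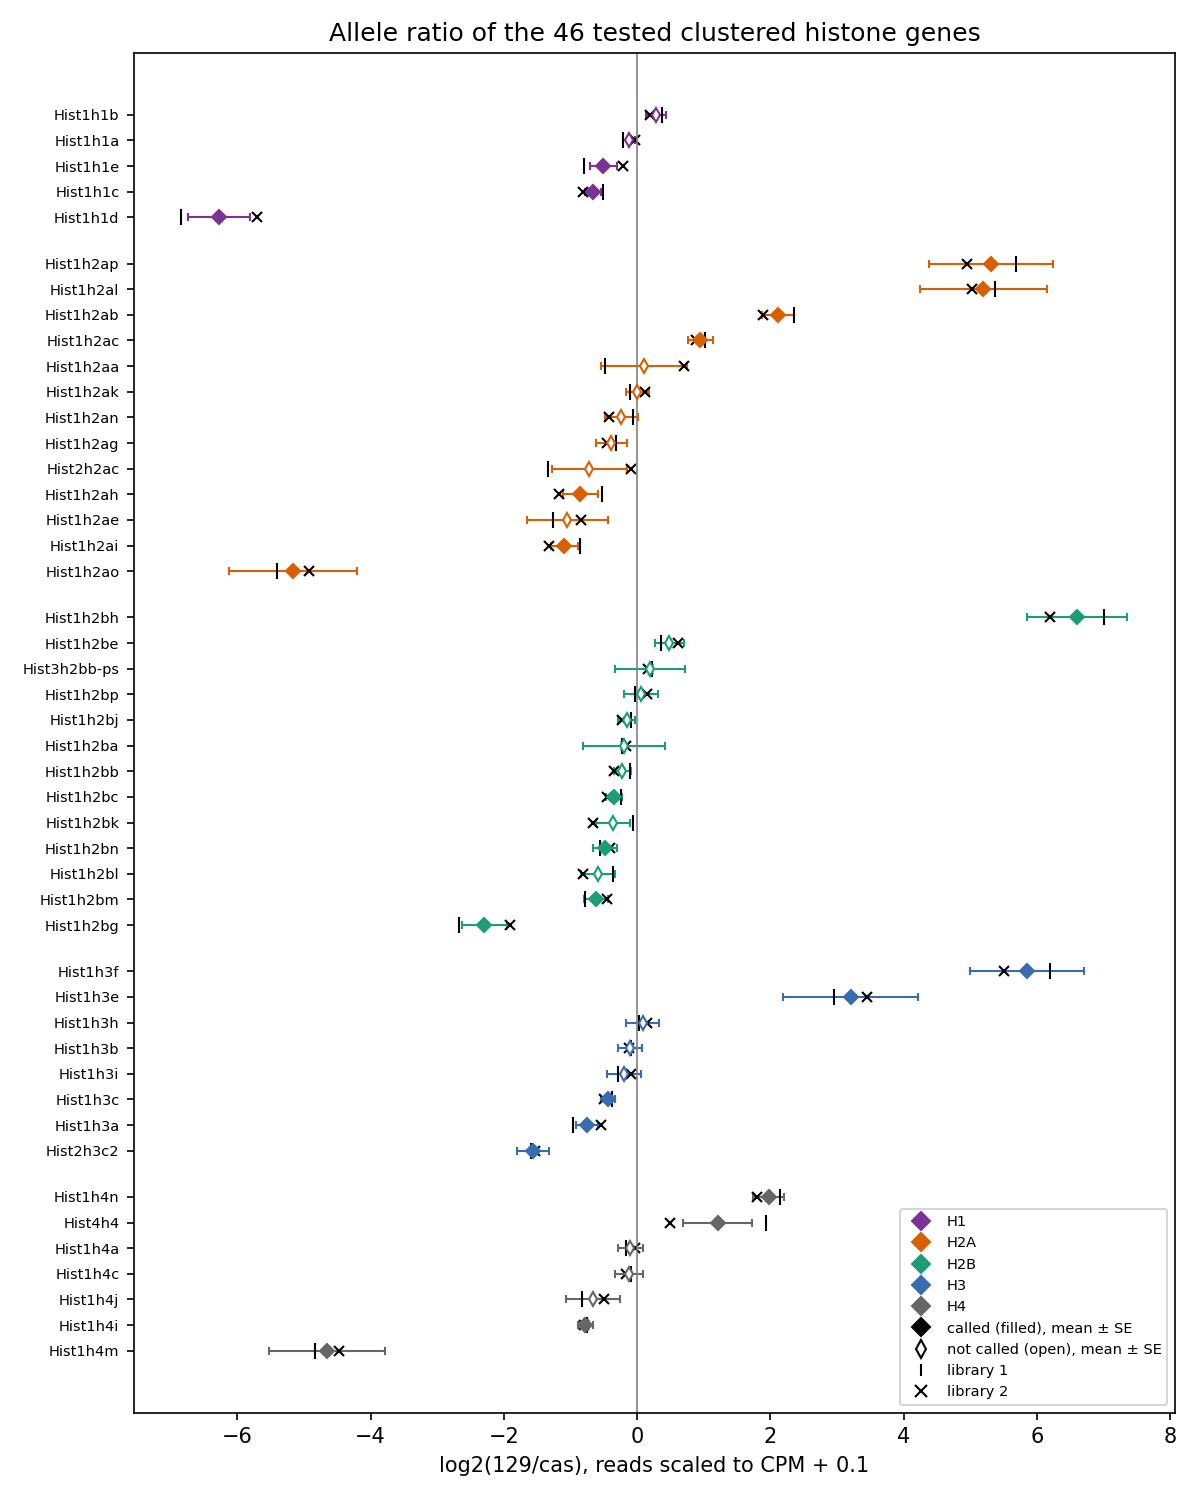
Log2(129/cas) of the 46 tested genes (horizontal axis, mean ± SE, TMM-scaled CPM + 0.1) by histone type, with filled markers for genes that passed the threshold and black marks for each library. Most ratios lie near 0, with 5 genes above 3 and 3 genes below -3.

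Summed over all 70 genes, 129 gave 10843 and 11536 reads in libraries 1 and 2, and cas gave 10244 and 11038, a 129 share of 51.4% and 51.1%. Both shares lie below those of a gene with equal alleles (55.3% and 56.0%). The sum is 0.0739% and 0.0719% of the allele-assigned reads. By type, the 129 share was 48.4% ± 1.34 for H1, 57.9% ± 1.9 for H2A, 51.4% ± 0.99 for H2B, 49.1% ± 0.92 for H3 and 51.6% ± 0.72 for H4 (SD, n = 2 for each). H2A was the one type whose share was above that of an equal gene in both libraries, at 59.3% and 56.6%; without its best covered gene, Hist1h2ac, its mean was 55.1%, and without the best covered H4 gene, Hist1h4i, the H4 mean was 60.9%. The share was 51.5% ± 0.25 for Hist1 and 31.4% ± 3.07 for Hist2, whose reads were mostly placed on the H3 gene Hist2h3c2. With at most 20 genes a type and some holding much of the sum, these shares describe few genes.

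Among the H1 genes, 5 of 6 were tested; 3 were higher from cas, 0 from 129, and 2 did not pass. Hist1h1d, which encodes the linker histone H1.3 (chr13:23553262-23560686, plus strand, GRCm38), had 2 and 6 reads from 129 in libraries 1 and 2, and 326 and 318 from cas. Its alleles did not overlap in either library, with a log2 ratio of -6.84 in library 1 and -5.70 in library 2. The 129 share was 1.23% ± 0.88 (SD, n = 2), the fitted log2 ratio -6.27 ± 0.46 (SE) and the limma adjusted p 7.3e-22. Of the 100-base stretches of its annotated transcript, 0.792% occur in another gene. That transcript has 7425 bases, of which 663 are coding, and it opens before the RefSeq start. The coding sequence of Hist1h1d is 85.5% identical to that of Hist1h1c and 84.2% to that of Hist1h1e.

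The other somatic H1 genes had reads from both alleles. Hist1h1c, which encodes H1.2, had 514 and 606 reads from 129 and 591 and 841 from cas, with a log2 ratio of -0.66 ± 0.12 (limma adjusted p = 2.8e-06). In both libraries its cas count was the higher one, although 129 has the larger columns and the counts overlap across libraries. Hist1h1e, for H1.4, had 200 and 228 reads from 129 and 282 and 208 from cas, which overlap; its ratio of -0.51 ± 0.20 passed narrowly (limma adjusted p = 0.030), and was -0.80 in library 1 and -0.21 in library 2. Its call was lost in library 2 alone by the exact binomial test (adjusted p = 0.17), and in the limma fit with no library block and with 1 shared library size. The transcript of Hist1h2be, annotated over 37455 bp on the same strand, overlaps Hist1h1e, and reads of the genes may not be told apart. Hist1h1a, for H1.1, was the best covered member, with 1079 and 1465 reads from 129 and 1010 and 1177 from cas, and did not pass (log2 ratio -0.12 ± 0.09, limma adjusted p = 0.30). Hist1h1b, for H1.5, had 465 and 507 reads from 129 and 291 and 350 from cas, with a log2 ratio of 0.28 ± 0.15 that did not pass (limma adjusted p = 0.13), but did with 1 shared library size (0.60, adjusted p = 2.8e-04) and with the deposited column totals (0.38, adjusted p = 0.032).

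Of 13 tested H2A genes, 4 were higher from 129 and 3 from cas. Hist1h2ap (chr13:21833026-21833507, minus strand) had 77 and 54 reads from 129 and none from cas in either library, which is at least 34.8-fold higher from 129 against a floor of 3 reads over both libraries. Hist1h2ao (chr13:21810465-21810944, plus strand) had no read from 129 in either library and 51 and 42 from cas, at least 38.9-fold lower from 129; this gene was chosen after its values were seen. The pair thus had opposite one-sided reads. Their transcripts are identical over 452 aligned bases, so that the reference does not tell their reads apart, and the sources used here do not say how such reads were placed. The summed reads of the pair, a sum chosen after seeing the data, were 77 and 54 from 129 and 51 and 42 from cas, a 129 share of 58.2% ± 2.76 (SD, n = 2) and a log2 ratio of 0.15. The pseudogene Hist1h2al (chr13:51202727-51203065, minus strand), 27.3 Mb from the nearest other Hist1 row, had 62 and 57 reads from 129 and none from cas, at least 31.6-fold higher from 129.

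The other H2A genes that passed had reads from both alleles. Hist1h2ab (chr13:23751126-23751598) had 360 and 366 reads from 129 and 56 and 77 from cas, a log2 ratio of 2.12 ± 0.24 (limma adjusted p = 7.8e-13). Hist1h2ac had 423 and 383 reads from 129 and 169 and 162 from cas, a log2 ratio of 0.95 ± 0.18 (limma adjusted p = 8.0e-06). In both genes the alleles did not overlap. Hist1h2ai had 158 and 164 reads from 129 and 233 and 326 from cas, and a ratio of -1.09 ± 0.20 (limma adjusted p = 3.9e-06). Hist1h2ah had 114 and 103 reads from 129 and 133 and 185 from cas, a ratio of -0.85 ± 0.26 (limma adjusted p = 0.0048) that was lost with no library block (adjusted p = 0.051) and with 1 shared library size. Of the stretches of Hist1h2ai 88.4%, and of those of Hist1h2ah 89.5%, occur in other genes. The best covered H2A genes that did not pass were Hist1h2ak, with 295 and 316 reads from 129 and 257 and 229 from cas, and Hist1h2ag, with 141 and 159 from 129 and 142 and 172 from cas. The other 4 that did not pass include the testis-type gene Hist1h2aa, with 19 and 26 reads from 129 and 22 and 12 from cas.

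Of 13 tested H2B genes, 1 was higher from 129 and 4 from cas. Hist1h2bh (chr13:23541714-23543392, minus strand) had 196 and 131 reads from 129 and none from cas in either library. This is at least 86.8-fold higher from 129, the largest bound among the members (limma adjusted p = 1.8e-12), and 0 cas reads among 327 allow a cas share of up to 0.917%. Of the stretches of Hist1h2bh 8.16% occur in another gene. Hist1h2bg (chr13:23571396-23572013, plus strand) had 25 and 52 reads from 129 and 135 and 158 from cas, a log2 ratio of -2.29 ± 0.34 (limma adjusted p = 2.0e-08), and its alleles did not overlap.

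The other H2B genes that passed differed little. Hist1h2bm had 264 and 246 reads from 129 and 367 and 265 from cas (log2 ratio -0.62 ± 0.18, limma adjusted p = 0.0026). Hist1h2bn had 221 and 277 reads from 129 and 264 and 288 from cas (log2 ratio -0.48 ± 0.18, limma adjusted p = 0.025), and Hist1h2bc 575 and 657 from 129 and 551 and 709 from cas (log2 ratio -0.35 ± 0.12, limma adjusted p = 0.014). The counts of Hist1h2bn and Hist1h2bc overlap between the alleles across libraries, although within each library that of Hist1h2bn was higher from cas. The calls of all 3 genes were lost with no library block and with 1 shared library size. Hist1h2bj, with 675 and 596 reads from 129 and 582 and 548 from cas, and Hist1h2bb, with 582 and 588 from 129 and 506 and 589 from cas, did not pass, at log2 ratios of -0.16 ± 0.12 and -0.23 ± 0.13. Hist1h2bl (adjusted p = 0.052) and Hist1h2be (adjusted p = 0.065) were the 2 tested members with an unadjusted limma p under 0.05 that did not pass.

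**Figure D2:**
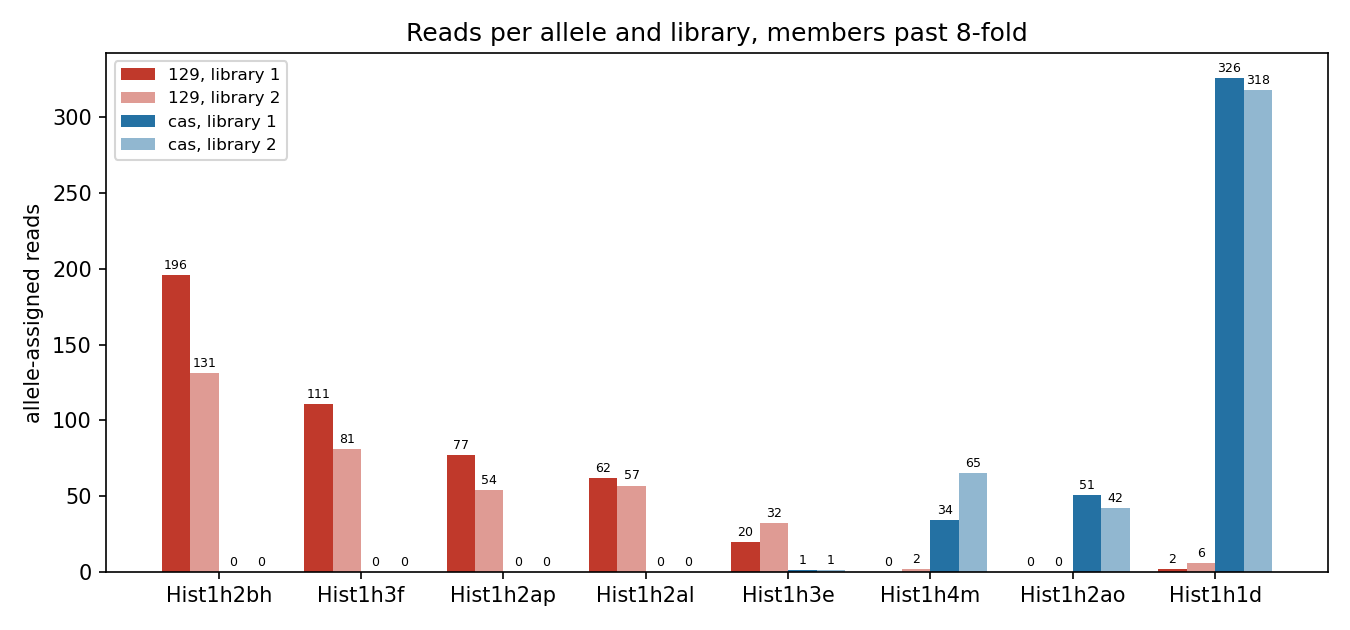
Allele-assigned reads (vertical axis, linear, from 0) of the 8 genes with a called difference of at least 8-fold, as 129 bars (red) and cas bars (blue) for libraries 1 and 2. The 5 genes at the left have at most 1 cas read a library, and the 3 at the right at most 6 129 reads.

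Of 8 tested H3 genes, 2 were higher from 129 and 3 from cas. Hist1h3f (chr13:23544052-23545312, plus strand) lies 659 bp from Hist1h2bh by the annotated spans and had 111 and 81 reads from 129 and none from cas, at least 51.0-fold higher from 129 (limma adjusted p = 8.3e-09). Hist1h3e (chr13:23561534-23562369, minus strand), chosen after its values were seen, had 20 and 32 reads from 129 and 1 and 1 from cas, a pooled 129 share of 96.3% with an exact 95% interval of 87.3% to 99.5% that covers counting error only. Both genes thus leaned to 129. Their transcripts are 98.6% identical, with 12 differences in 836 aligned bases, so that a read of one may be placed on the other.

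The 3 H3 genes higher from cas had reads from both alleles. Hist2h3c2, of the Hist2 cluster (chr3:96238108-96239127, minus strand), had 93 and 94 reads from 129 and 230 and 216 from cas, a log2 ratio of -1.56 ± 0.24 (limma adjusted p = 5.7e-08). Its counts were close between libraries and did not overlap between alleles. Its copies Hist2h3c1 and Hist2h3b had no read. Of the stretches of Hist2h3c2, 61.6% occur in another gene, most of them in Gm20634, which overlaps Hist2h3c1. Its coding sequence is 99.8% identical to that of Hist2h3b. Reads of these copies may thus not be told apart. Hist1h3a had 246 and 351 reads from 129 and 390 and 401 from cas, a log2 ratio of -0.75 ± 0.16 (limma adjusted p = 5.8e-05). Hist1h3c, with 896 and 744 reads from 129 and 945 and 822 from cas, had a log2 ratio of -0.44 ± 0.11 (limma adjusted p = 3.5e-04). Its counts overlap across libraries, although cas was the higher within each. The call of Hist1h3c was lost with no library block and with 1 shared library size. Hist1h3b, with 266 and 283 reads from 129 and 229 and 242 from cas, and Hist1h3h, with 166 and 161 from 129 and 132 and 114 from cas, did not pass, at log2 ratios of -0.11 ± 0.18 and 0.09 ± 0.25.

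Of 7 tested H4 genes, 2 were higher from 129 and 2 from cas. Hist1h4n (chr13:21831767-21832196, minus strand) had 365 and 378 reads from 129 and 66 and 84 from cas, a log2 ratio of 1.97 ± 0.23 (limma adjusted p = 2.8e-12). Hist1h4m (chr13:21811746-21812147, plus strand) had 0 and 2 reads from 129 and 34 and 65 from cas, a pooled 129 share of 1.98% with an exact 95% interval of 0.241% to 6.97%. These copies leaned to opposite alleles. Their coding sequences are identical over 309 bases, as are their stem-loops above, and their transcripts differ at 1 of 402 aligned bases. Summed over the pair, a sum chosen after seeing the data, 129 gave 365 and 380 reads and cas 100 and 149, a 129 share of 75.2% ± 4.71 (SD, n = 2) and a log2 ratio of 1.27.

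Hist1h4i, the best covered H4 gene, had 642 and 704 reads from 129 and 877 and 962 from cas. Its 129 share was the same in both libraries, at 42.3% ± 0.0055 (SD, n = 2), with a log2 ratio of -0.78 ± 0.11 (limma adjusted p = 2.7e-09), and 15.1% of its stretches occur in another gene. Hist4h4, the single Hist4 gene (chr6:136801553-136804415, minus strand), had 75 and 40 reads from 129 and 15 and 22 from cas. Its alleles did not overlap, but its log2 ratio of 1.21 ± 0.51 (limma adjusted p = 0.048) was 1.93 in library 1 and 0.49 in library 2, and its call was lost in library 2 alone (adjusted p = 0.28 by the exact binomial test), and in the limma fit with no library block and with no filter on low reads. Hist1h4a, with 233 and 306 reads from 129 and 211 and 247 from cas, and Hist1h4c, with 180 and 243 from 129 and 155 and 214 from cas, did not pass, at log2 ratios of -0.10 ± 0.19 and -0.13 ± 0.21.

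Of the 8 genes past 8-fold, all but Hist1h2al lay at 2 places in Hist1. Hist1h2bh, Hist1h3f, Hist1h1d and Hist1h3e have their starts within 1827 to 1846 kb from the first Hist1 gene, and Hist1h2ao, Hist1h4m and Hist1h2ap within 94.2 to 117 kb, where the near-identical copies lie. Within the first of these stretches neighbours leaned to opposite alleles: Hist1h1d was higher from cas, between Hist1h3f and Hist1h3e, which were higher from 129. Where Hist1 is split at gaps of over 100 kb, the 129 share of summed reads was 53.5% ± 0.16 in the stretch of 19 genes that holds the copies, 46.7% ± 1.79 in the 5 genes from Hist1h2ah to Hist1h2bj and 51.8% ± 0.0047 in the 29 genes from Hist1h4h to Hist1h1a (SD, n = 2 for each). The shares of these stretches were not compared by a test.

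**Figure D3:**
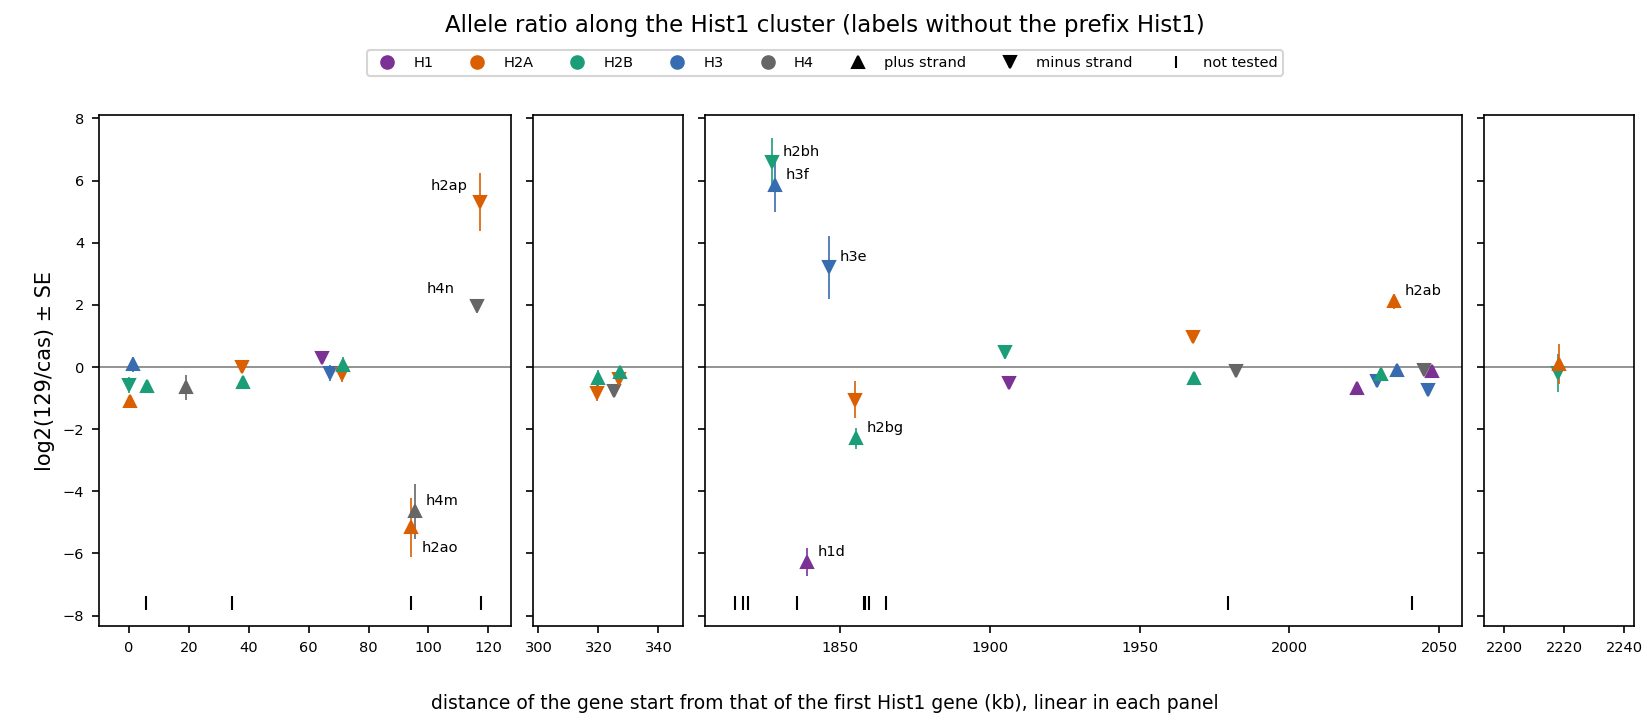
Log2(129/cas) ± SE (vertical axis) of tested Hist1 genes by the distance of their start from that of the first Hist1 gene (horizontal axis, kb, linear in each panel), coloured by histone type and pointed by strand; bars at the foot are untested genes. Hist1h2al, 27.3 Mb further on, is not drawn. Ratios past 8-fold sit at the end of the first panel and in the first part of the third, and Hist1h2ab, at 2.12, lies near the end of the third.

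H2A and H2B genes often lie head to head, with a shared stretch between their starts. Taking the centre of each deposited row as the start, there were 14 such pairs with starts under 500 bp apart, and 8 had both genes tested; 4 of the 8 pairs had the same sign in both genes. The median size of the difference between the log2 ratios of the 2 genes was 0.49. The largest was in Hist1h2ac and Hist1h2bc, with row centres 274 bp apart, at 0.95 and -0.35, where Hist1h2ac was higher from 129 and Hist1h2bc from cas. In Hist1h2ae and Hist1h2bg, with row centres 286 bp apart, the ratios were -1.05 and -2.29, and the first gene, with 12 and 22 reads from 129 and 25 and 32 from cas, did not pass. Since the genes of a pair share libraries and were not compared by a test, these are descriptions.

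One-sided genes occurred at low and at high shares of shared sequence. Genes annotated over a member count as another gene in these shares. Over the 8, a median of 38.6% of stretches occurred in another gene, with a range from 0.792% (Hist1h1d) to 92.7% (Hist1h2ao). Over the other 38 tested members the median was 31.3%, with a range from 0% to 92.0%. The annotated transcript of Hist1h1d has 7425 bases, of which 663 are coding, so that its share describes mostly bases outside the coding sequence. Without members that share more than 50% of their stretches, an alternative chosen after seeing the data, 6 genes were higher from 129 and 9 from cas. Hist1h1d, Hist1h2bh, Hist1h3f, Hist1h3e and Hist1h2al remained among them.

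**Figure D4:**
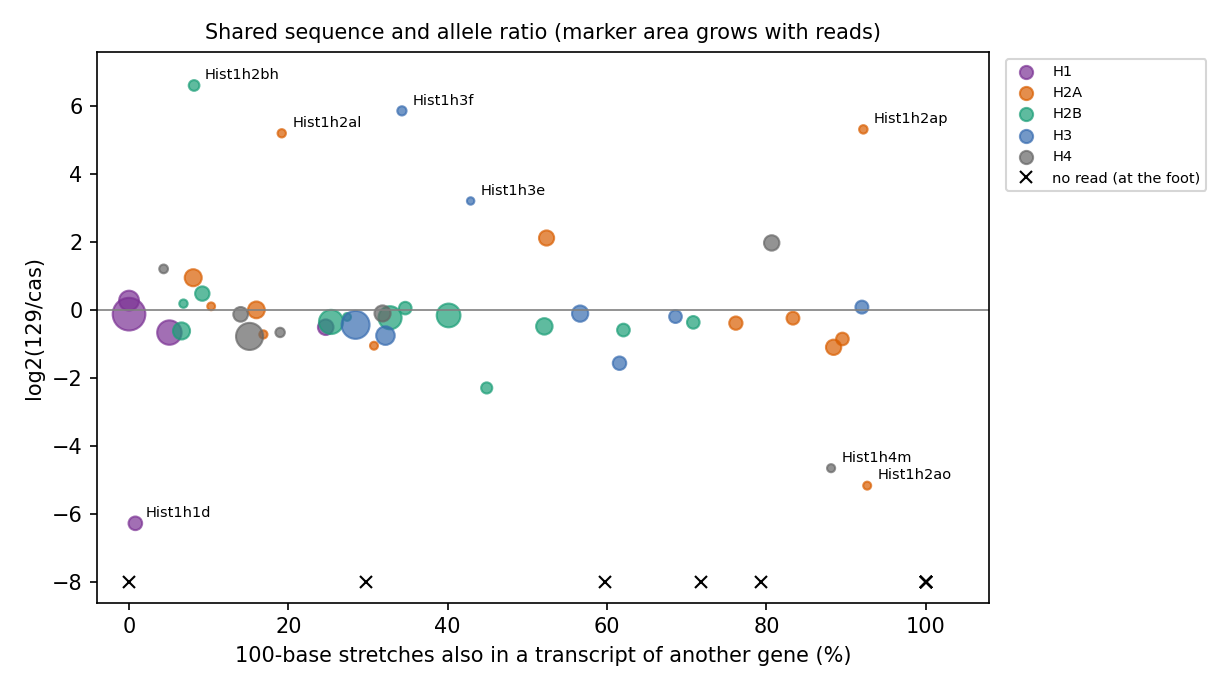
Log2(129/cas) of the tested members (vertical axis) by the percentage of 100-base stretches of the transcript that also occur in another gene's transcript (horizontal axis), coloured by histone type, with marker area growing with reads; crosses at the foot are the 10 genes with no read. Another gene can be one annotated over the same place. One-sided genes occur from 0.792% to 92.7%.

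Rows annotated between the outermost members of a cluster had few reads. The 147 such rows had 405 and 470 reads in libraries 1 and 2, against 21087 and 22574 for the histone genes, and 1 was tested. This was Zfp184, a zinc finger gene, with 153 and 165 reads from 129 and 101 and 115 from cas, which did not pass (log2 ratio 0.23 ± 0.26, limma adjusted p = 0.50). A neighbour's ratio could thus be set beside the histone genes at 1 place only.

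Genes that act on histone messages and histone proteins were tested in the same fit. Of 20 tested genes of histone pre-mRNA processing and transcription, 2 were higher from 129 and 6 from cas. Their median log2 ratio was -0.02, and 40% passed, against 43.7% of all genes tested (21.8% each way). With 1 shared library size, 7 were higher from 129 and 1 from cas, where 81.3% of the calls over all genes were toward 129. With no library block these counts were 0 and 3, where 54.7% of the calls over all genes were toward 129. Npat, the coactivator of histone transcription in S phase, had 2449 and 2621 reads from 129 and 2169 and 2022 from cas and did not pass (log2 ratio -0.05 ± 0.07), but was higher from 129, at 0.27, with 1 shared library size. Eri1, the exonuclease that trims histone messages, had 1169 and 1358 reads from 129 and 1574 and 1760 from cas (log2 ratio -0.73 ± 0.08, limma adjusted p = 2.8e-12), and was higher from cas with 1 shared library size and with no block too. Cdk2, the kinase that phosphorylates NPAT, had 220 and 254 reads from 129 and 124 and 73 from cas (log2 ratio 0.97 ± 0.24, limma adjusted p = 5.6e-04), with a call lost without the block. The cleavage factor gene Cpsf2 (log2 ratio -0.52) and Srrt, of the cap-binding complex (log2 ratio -0.37), were lower from 129, and both calls were lost with 1 shared library size.

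Of 24 tested histone chaperone genes, 4 were higher from 129 and 11 from cas, with a median of -0.23. The share that passed was 62.5%, against 43.7% of all genes tested (21.8% each way). With 1 shared library size the counts were 10 and 3, where 81.3% of the calls over all genes were toward 129. With no library block they were 2 and 2, where 54.7% of the calls over all genes were toward 129. Set had 2290 and 2201 reads from 129 and 4675 and 3667 from cas, a log2 ratio of -1.21 ± 0.06 (limma adjusted p = 5.6e-31), and Npm1 had 13195 and 12461 reads from 129 and 7192 and 6209 from cas, a ratio of 0.61 ± 0.04 (limma adjusted p = 1.6e-23). Neither call was lost under these settings. Asf1b, which hands H3 and H4 to the assembly machinery, had a log2 ratio of -0.96 ± 0.28 that was lost with no block. Nasp, the chaperone of H3 and H4 reserves, was at 0.14 ± 0.05, lost with no block. Atrx was at -0.16 ± 0.03, lost with no block, and turned to 0.17 with 1 shared library size.

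Histone genes outside the clusters, listed as replication-independent, gave 3 genes higher from 129 and 1 from cas of 10 tested, with a median of 0.28. H2afx, among the 10, has the stem-loop consensus of the clustered genes. The share that passed was 40%, against 43.7% of all genes tested (21.8% each way). With 1 shared library size the counts were 8 and 0, where 81.3% of the calls over all genes were toward 129. With no library block they were 1 and 0, where 54.7% of the calls over all genes were toward 129. H2afy, for macroH2A1, had 1983 and 2727 reads from 129 and 1154 and 1524 from cas, a log2 ratio of 0.48 ± 0.08 (limma adjusted p = 1.3e-07), also higher from 129 with no block. H1f0, for the linker histone H1.0, had 83 and 112 reads from 129 and 60 and 12 from cas; its ratio of 1.45 ± 0.43 was 0.16 in library 1 and 2.74 in library 2, and its call was lost with no block. H2afy2, for macroH2A2, was at 0.93 ± 0.22 and H2afv, for an H2A.Z, at -0.31 ± 0.11, both lost with no block, and H2afv turned to 0.01 with 1 shared library size. H2afz, for the other H2A.Z, had 853 and 648 reads from 129 and 499 and 539 from cas and did not pass, at 0.19 ± 0.12, but did, at 0.52, with 1 shared library size.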

How the data were processed

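Strand-specific total nuclear RNA libraries were read as 100 bp paired ends, per the labels' protocols, and reads of earlier libraries were merged in. Alignment used Bowtie2 on mm10, per the submitters' processing notes. The sources used here do not give the counting program, the strain differences, the annotation or the use of strand. The deposited values are RPKM, in columns that per the file headers are called counts. Value times row length gave whole reads for 100% of values (tolerance 0.01 read). The deposited lengths matched the annotated span (within 2 bp) of 0 of 70 histone genes, so levels of different genes are not compared.

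The 70 rows were matched by name to GENCODE M21, 56 with a start within 2 bp of the row's centre, and 62 to RefSeq promoters through synonyms and position. The members and lists were chosen with earlier results of these data known. For RPKM the planned test was limma, and limma 3.58.1 (R 4.3.3) was applied to log2 of TMM-scaled CPM plus 0.1, with trended variance and library as a block, since both alleles come from the same RNA. On this scale folds of genes with few reads come out too small. Genes needed 20 allele reads in each library, 1570 Y rows were left out, and the threshold was a Benjamini-Hochberg adjusted p of 0.05. The code was tested on simulated data. Exact binomial tests per library used scipy 1.17.1. The 129 share is the percentage of allele reads from 129, with its SD over 2 libraries. Values were printed for each called member with at least 100 reads, the 2 best covered uncalled members of each type, and, in other lists, the 3 best covered genes and up to 2 more called genes with the largest ratios. Hist1h2al, far from the other Hist1 genes, was left out when rows between members were listed. Alternatives were other scalings, pseudocounts, read minimums, no block, no variance trend and each library alone by the exact binomial test. Transcripts of GENCODE M21 were cut into stretches of 100 bases to measure shared sequence, on either strand and with overlapping genes included.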

Additional observations from a re-analysis of the deposited data

How the results depend on the processing

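The library block pairs the alleles of the same RNA. With no replicate block, 2136 of all genes were called toward 129 and 1771 toward cas, against 3388 and 3383 with it, and 9 clustered histone genes rather than 15 were higher from cas. The block changed 7 of 24 histone calls (adjusted p = 0.051 to 0.18 without it). The pre-mRNA processing list had 0 higher from 129 and 3 from cas, the chaperones 2 and 2, and the replication-independent genes 1 and 0. With no variance trend, 290 genes were called toward 129 and 166 toward cas, and 5 and 3 histone genes. In that setting 16 of 24 calls were lost, which were all those under 8-fold. With the deposited column totals the calls of Hist1h2bn, Hist1h1e and Hist1h2bc were lost. With 1 shared library size, 6505 genes were called toward 129 and 1492 toward cas, 9 histone genes were higher from cas, the chaperones had 10 and 3, processing 7 and 1, and replication-independent genes 8 and 0. Its reversed log2 ratios were 0.21 for Hist1h1a, 0.10 for Hist1h2bb, 0.17 for Hist1h2bj, 0.22 for Hist1h3b, 0.22 for Hist1h4a and 0.20 for Hist1h4c; Hist1h4a was 0.00021 with the deposited column totals, and Hist1h2ak was -0.11 without library 2 and 0.12 without library 1. None of these ratios passed. The minimum of 100 reads in each library left 4 histone genes higher from 129 because it tests fewer genes, and leaving out mostly shared members left 9 higher from cas. With 1 library no limma fit has residual spread, so leaving out a library was tested by the exact binomial test of the other, and library set and test changed together: this gave 4505 to 5079 genes higher from 129, 4556 to 5157 from cas, and 9 to 11 and 20 to 20 histone genes. Among alternative values of single named histone genes, 327 kept direction and side of the threshold, 37 lost the call, 7 gained it and 8 turned; the gains were Hist1h1b with 1 shared library size, with column totals and in library 1 alone, Hist1h1a in library 1 alone, and Hist1h2ag, Hist1h2bb and Hist1h2bj in library 2 alone. The mean 129 share of all members was 51.0% without the best covered gene, 45.6% from TMM-scaled reads, 51.8% as the median of genes and 51.1% to 51.4% without a library. In the same order, H1 gave 44.2%, 42.8%, 46.9% and 47.5% to 49.4%, and 51.6% without members past 8-fold. H2A gave 55.1%, 52.3%, 51.5% and 56.6% to 59.3%. H2B gave 45.8% from TMM-scaled reads, 50.2% without members past 8-fold and 50.7% to 52.1% without a library. H3 gave 43.5%, 53.0% as the median, 47.5% without members past 8-fold and 48.4% to 49.7%. H4 gave 60.9%, 45.9%, 53.5% and 51.0% to 52.1%, and 52.3% without members past 8-fold. Hist1 gave 51.2%, 45.8%, 51.8% and 51.3% to 51.7%. Leaving out members past 8-fold or mostly shared was chosen after seeing the data. The cause of these shifts was not tested. Depth limits the genes under 100 reads, for which 0 reads from an allele is not absence.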
